A study of Solanum lycopersicum with 84 samples.

Results

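A group of 217 tomato genes was picked by opposite differences with nitrate supply in 2 organs. Their mean mRNA level was higher in roots and lower in shoots when nitrogen (N) was supplied. They were chosen from the 34075 genes of the count table by their CPM, the reads of a gene per 1000000 counted reads of its library. In roots, the mean of the +N libraries had to be at least 1.5 times the mean of the −N libraries and at least 1 CPM, and each +N library had to exceed each −N library. In shoots the same limits were set the other way round, −N over +N. The higher level in +N roots and the lower level in +N shoots are therefore how the genes were picked, and they are described below without a test. The smaller set of 98 genes that meets the mirror rule, lower in +N roots and higher in +N shoots, is used for comparison.

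The plants were *Solanum lycopersicum* cultivar M82, grown for 22 days and then kept for 4 days without N. They then received medium with 2.8 mM nitrate (+N) or continued in N-free medium in which chloride took the place of nitrate (−N), and roots and shoots were harvested 6 h later. So all 4 groups had been starved, and −N plants differ from +N plants only in what the last medium held. Each of root −N, root +N, shoot −N and shoot +N has 3 mRNA libraries, and each library is a pool of several plants. The p-values below measure the spread between these pools.

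Nitrate is both the main N source of most crop plants and a signal that changes gene expression within minutes to hours. Roots take it up and pass part of it to the shoot in the xylem. Shoots reduce much of it with energy from photosynthesis, and N-starved leaves break down protein and export amino acids. Stress proteins, enzymes of amino acid breakdown and enzymes that inactivate hormones are known to respond to N status. What such genes do in each organ was not tested here.

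The 12 libraries held 17472760 to 21901432 counted reads, and libraries of the same group had correlations of log2 CPM between 0.991 and 0.995 over the 17839 genes that reached the level limit in both organs. Organ identity was checked with 15 shoot markers (genes for photosynthesis proteins and carbonic anhydrases) and 14 root markers (high-affinity nitrate transporters and Casparian strip proteins), none of which is among the 217 genes. Of the shoot markers 11 were higher in both shoot groups than in both root groups, and of the root markers 7 were higher in both root groups, while 1 of each list was higher in the other organ. The summed level of the shoot markers was 3331 to 5573 CPM in shoots and 160 to 310 CPM in roots. The root markers summed to 760 to 1686 CPM in roots and 49.8 to 62.2 CPM in shoots, where 2 of them had no count in −N and 4 had none in +N.

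Scaling bears on the shoot part of the rule. Among the 17839 genes at the level limit the median log2 ratio of +N over −N was −0.31 in shoots and −0.16 in roots when libraries were scaled to their total counts. TMM scaling, which centres the bulk of genes at no change, moved these medians to −0.02 and 0.00. CPM values in the text are scaled to total counts, as in the rule, and log2 fold changes with their standard errors (SE) come from edgeR with TMM. With TMM in the rule 174 genes qualified, of which 122 are among the 217, so 95 of the 217 depend on total-count scaling. All 217 kept a positive log2 fold change in roots and a negative one in shoots after TMM.

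The root part of the rule was met by 9.37% of the genes at the level limit and the shoot part by 33.4%. Both parts together were met by 1.22%. The ratio of +N over −N in roots had a median of 1.92 over the 217 genes, with quartiles of 1.64 and 2.53. The ratio of −N over +N in shoots had a median of 2.01, with quartiles of 1.70 and 2.47. It was highest at 17.5. At least a 5-fold ratio was seen for 11 genes in roots and 8 genes in shoots, and 51 genes had a ratio of at least 2 in both organs. A gene with a large ratio in one organ did not tend to have a large ratio in the other (Pearson's r = 0.06 and Spearman's rho = 0.06 across 216 genes with counts in all groups). These points share their libraries, and both ratios start at the limit of the rule.

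With the study's thresholds (2-fold, adjusted p 0.015), edgeR called 130 of the 217 genes higher in +N roots and 50 lower in +N shoots. Over all genes tested the shares called were 6.23% in roots and 7.62% in shoots, and nothing is read from the difference because the rule used these contrasts. Both calls were made for 26 genes, 63 had neither, 104 were called in roots alone and 24 in shoots alone. The genes just inside the fold limit had ratios of 1.5001 to 1.5042 in roots and 1.5005 to 1.5134 in shoots (3 genes each). Those just outside it had 1.4978 to 1.4999 and 1.4895 to 1.4933.

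**Figure D1:**
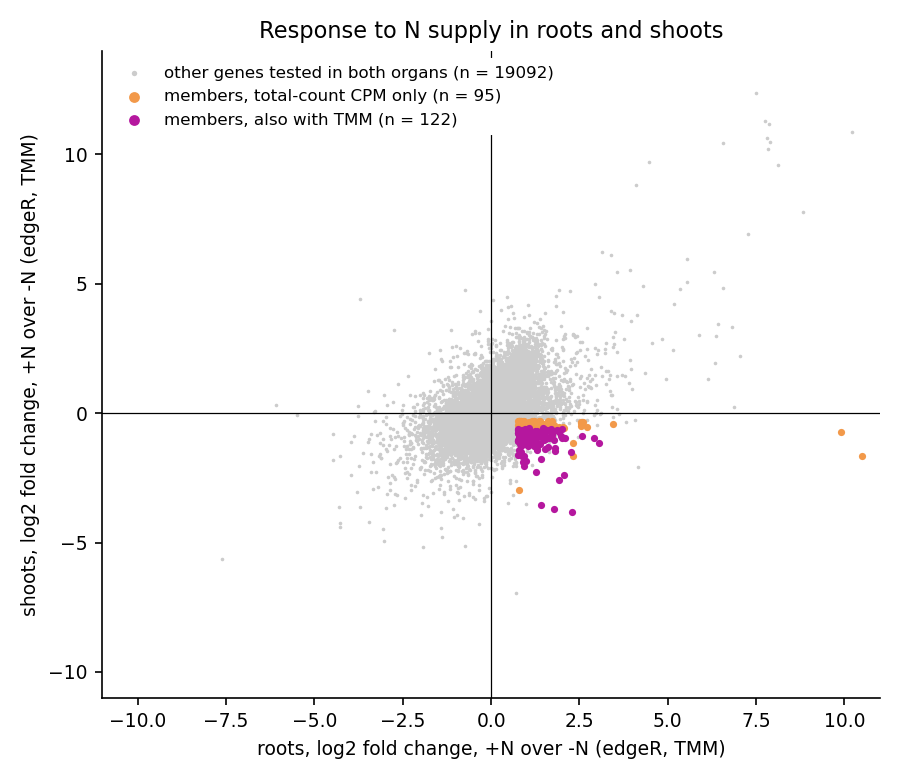
Log2 fold change of +N over −N in roots (x axis) and shoots (y axis) from edgeR with TMM, for 19092 other genes tested in both organs (grey), the 122 genes that also qualify with TMM (magenta) and the 95 that qualify only with total counts (orange). The 217 genes fill the quadrant to the right of and below 0, as the rule requires, and those that qualify only with total counts lie mostly closest to the horizontal line.

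All 12 libraries entered the choice of the 217 genes, so none is left to check that set. The rule was therefore also applied to part of the libraries, which chose other sets. When the rule was applied to 2 of the 3 replicate numbers and the 4 libraries of the remaining number were then read, 239, 216 and 265 genes were chosen with replicates 1, 2 and 3 left out. Of these sets 184, 183 and 193 genes are among the 217. In the libraries left out, 58.6%, 65.7% and 48.7% of the chosen genes passed 1.5-fold in both organs, beside 1.55%, 1.55% and 1.28% of all genes at the level limit. In direction alone, 90.8%, 94.0% and 92.5% were higher in the +N root library and lower in the +N shoot library, beside 14.9%, 16.0% and 15.3% of all genes. The libraries left out were scaled to total counts as in the rule, so these shares cannot show what depends on that scaling. They are descriptions and no independent check of the 217 genes. The spread between replicates was larger for the 217 genes than for genes at large, with a median coefficient of variation of 12.5% against 6.72% in root −N, 8.45% against 6.43% in root +N, 10.8% against 7.16% in shoot −N and 10.9% against 6.14% in shoot +N.

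**Figure D2:**
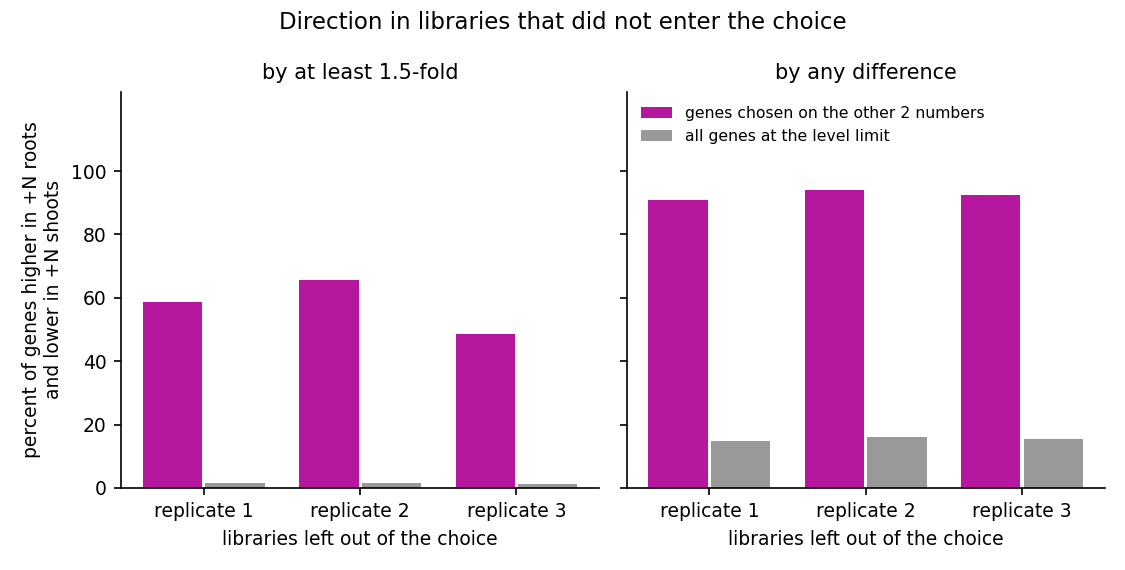
Percent of genes that were higher in the +N root library and lower in the +N shoot library among libraries left out of the choice, for genes chosen on the other 2 replicate numbers (magenta) and all genes at the level limit (grey). The chosen genes reach 48.7% to 65.7% at 1.5-fold and 90.8% to 94.0% in direction alone, all above the grey bars.

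The 217 genes took 1.54% to 1.91% of the counted reads in root −N libraries and 3.20% to 3.22% in root +N libraries. In shoots they took 0.962% to 1.03% in −N and 0.518% to 0.556% in +N. That neither organ's groups overlapped follows from the rule. A single undescribed gene, *Solyc06g059740.4*, held a large part of the reads of the group in roots, and without it the share was 0.903% to 1.13% in root −N and 2.08% to 2.15% in root +N. In bulk tissue, more mRNA per cell and more cells of an expressing type cannot be told apart.

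The rule compared −N with +N within each organ and set no limit on one organ against the other. The level in one organ against the other, averaged over −N and +N, uses the same libraries and is no independent check of the group. This organ difference, coded as mean shoot minus mean root on the log2 scale, was tested by edgeR over all 12 libraries and 22483 genes with Benjamini-Hochberg adjustment. Of the 217 genes 120 (55.3%) were called higher in roots, where 19.4% of all tested genes were called, and 17 (7.83%) were called higher in shoots, where 20.9% of all tested genes were called. The remaining 80 had no call. The balance depended on N supply, as the rule sets: in −N libraries alone 59 were called higher in roots and 53 in shoots (18.1% and 19.6% of all tested genes), and in +N libraries alone 168 and 9 (22.1% and 22.9%). Averaged over −N and +N, 13.3% of the 17839 genes at the level limit were called higher in roots and 16.9% higher in shoots. The median organ difference was −1.31 for the 217 genes and 0.00 for all genes tested. For the 122 genes that also qualify with TMM, a set examined after the values were seen, 70 (57.4%) were higher in roots and 8 (6.56%) in shoots.

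Neither part of the rule alone gave such shares. Of the 1454 genes that met the root part but not the shoot part, 21.7% were called higher in roots and 18.4% in shoots, with a median organ difference of 0.07. Of the 5735 genes that met the shoot part but not the root part, 16.5% and 12.7% were called, with a median of −0.20. The mirror rule sets the opposite response in both organs. Of its 98 genes 18.4% were called higher in roots and 53.1% higher in shoots, with a median of 1.31. These shares are descriptions, and the differences between the sets of genes were not tested. The summed root markers in shoots were 49.8 to 59.4 CPM in −N and 57.7 to 62.2 CPM in +N, and the shoot markers in roots were 160 to 175 CPM in −N and 294 to 310 CPM in +N. The root sum includes carbonic anhydrase genes such as *Solyc05g005490.4*, with means of 59.6 and 202 CPM in −N and +N roots, and *Solyc10g083890.2*, with 49.4 and 21.2 CPM. The chlorophyll a-b binding protein gene *Solyc03g005770.3* had 1.12 and 1.59 CPM in −N and +N roots and 1165 and 1283 CPM in −N and +N shoots. Root transcripts carried into shoot samples, or the reverse, were not tested as a source of these shares.

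**Figure D3:**
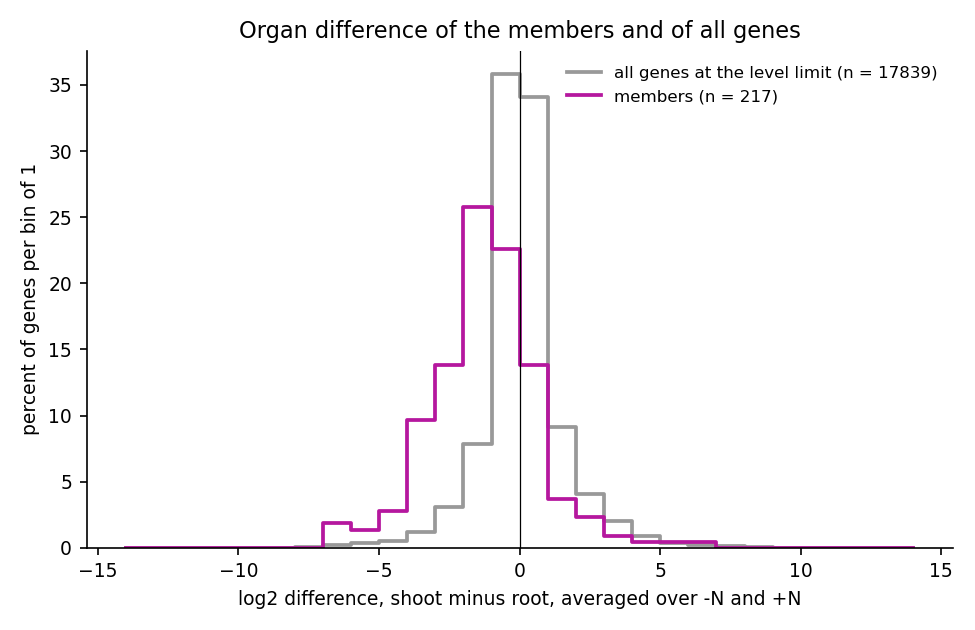
Distribution of the organ difference, mean shoot minus mean root on the log2 scale averaged over −N and +N (x axis), as percent of genes per bin of 1 (y axis), for the 217 genes (magenta) and the 17839 genes at the level limit (grey). The magenta curve lies to the left of the grey one, with medians of −1.31 and 0.02.

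The organ with the higher level was counted in each treatment by the sign of the difference alone, without a threshold. With CPM scaled by TMM over all 12 libraries, 99 of the 217 genes were higher in shoots in −N but 18 in +N. Accordingly 81 genes had the higher level in shoots under starvation and the higher level in roots under N supply, while 118 were higher in roots and 18 higher in shoots in both treatments. Some of the 81 were nearly level in −N, such as *Solyc06g064440.3* with a log2 ratio of 0.06. By the edgeR call, 53 of the 217 genes were higher in shoots in −N libraries alone. The sign counts were not set beside those of all genes. A shift in this direction follows from the rule. For 173 genes the root +N group was the highest of the 4 groups and for 44 it was shoot −N, and shoot +N was the lowest group for 157 genes and root −N for 60.

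**Figure D4:**
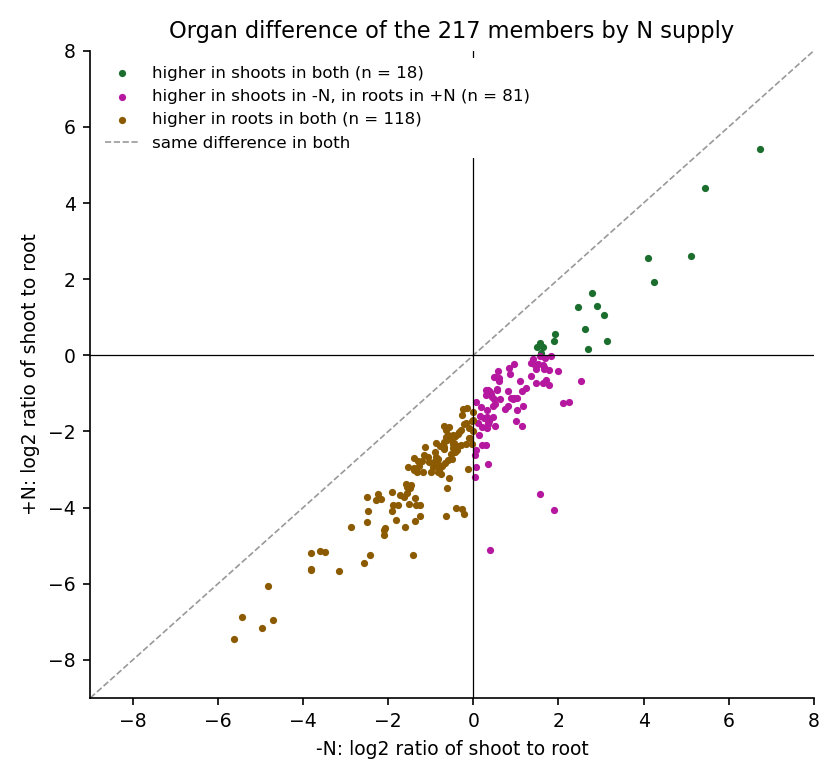
Log2 ratio of shoot to root level in −N (x axis) and in +N (y axis) for each of the 217 genes, from TMM-scaled CPM with 0.5 added. Points below the dashed line moved toward roots under +N, as the rule sets for every gene. The 81 magenta points crossed by sign from higher in shoots to higher in roots, some of them nearly level in −N.

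Descriptions come from the ITAG4.0 annotation in the study's supplementary lists, which hold only genes that the study listed as changed in expression or in histone marks. They named 113 of the 217 genes and marked 6 more as unknown or hypothetical, and the other 98 have no description here. Where a role is known from the annotated homolog in *Arabidopsis thaliana*, that species is named.

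The largest differences between the root and shoot log2 fold changes among described genes were those of 2 genes annotated as transporters and of a gibberellin 2-oxidase gene. *Solyc06g075970.4*, described as an aromatic acid efflux pump subunit of the AaeB type, had no count in any of the 3 root −N libraries and 7.02, 10.5 and 9.84 CPM in root +N. With root −N set to a floor of 3 counts for the whole group, the +N level was at least 172-fold higher. In shoots it stood at 0.889, 0.876 and 1.28 CPM in −N and at 0.105, 0.330 and 0.329 CPM in +N. So this gene went from undetected to its highest level in roots while its low shoot level fell further, without overlap in either organ.

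*Solyc05g009580.3* is annotated as aluminum-activated malate transporter 9, which in *Arabidopsis* is an anion channel of the vacuole membrane. It had 1 count in the 3 root −N libraries together and 1150 in root +N, where the level was 20.2, 20.1 and 22.7 CPM. The ratio was 1186, with an exact binomial 95% interval of 212 to 46887 that covers counting error only. Its shoot levels were 0.988, 2.07 and 1.32 CPM in −N against 0.894, 0.518 and 0.769 CPM in +N, so the shoot groups were close to each other. Neither transporter meets the rule with TMM.

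*Solyc02g070430.3*, gibberellin 2-oxidase 1, belongs to the enzymes that inactivate bioactive gibberellins. In roots it had 0.227, 0.196 and 0.322 CPM in −N and 0.884, 1.37 and 1.09 CPM in +N. In shoots it had 3.75, 2.95 and 2.37 CPM in −N and 0.158, 0.141 and 0.220 CPM in +N, the ratio of 17.5 given above. The log2 fold change was 2.30 (SE 0.44) in roots and −3.80 (SE 0.40) in shoots, the lowest shoot value of the 217 genes. Its shoot −N libraries were the highest of all 12 and its shoot +N libraries were among the lowest, so the organ with more of the transcript depended on N supply.

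A tetratricopeptide repeat protein gene, *Solyc08g076730.4*, combined large changes with high read numbers. It had 77.4, 107 and 119 CPM in root −N and 356, 311 and 262 CPM in root +N. In shoots the −N libraries had 105, 124 and 145 CPM and the +N libraries 6.57, 9 and 7.74 CPM. Levels in the organs were thus close to each other under starvation and far apart under N supply. Log2 fold changes were 1.78 (SE 0.13) and −3.70 (SE 0.12), and the organ difference was −2.39 (SE 0.11), called higher in roots.

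**Figure D5:**
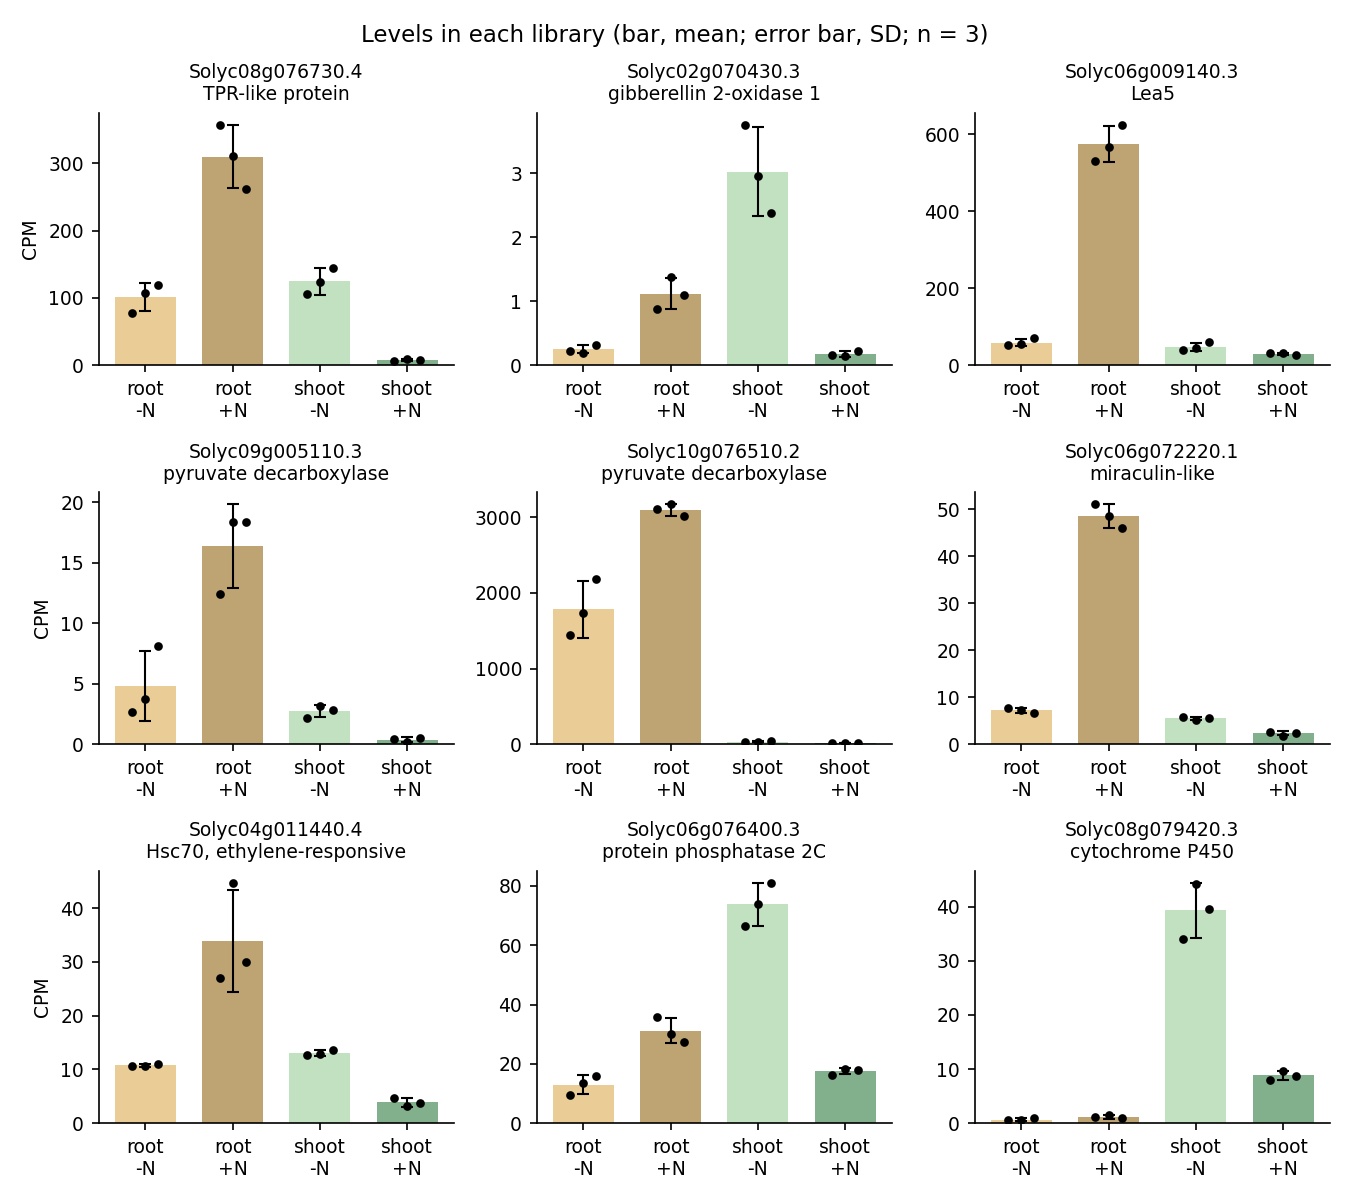
CPM scaled to total counts in the 12 libraries for 9 of the genes named in the text (points, libraries; bars, group means; error bars, SD, n = 3; each axis starts at 0 and has its own scale). In each panel the root +N points lie above the root −N points and the shoot −N points above the shoot +N points, while the organ with the higher level differs between panels.

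Both pyruvate decarboxylase genes of the group had the same pattern at very different read numbers. This enzyme converts pyruvate to acetaldehyde, the first step of ethanol fermentation. *Solyc10g076510.2* had 1438, 1731 and 2185 CPM in root −N and 3104, 3173 and 3015 CPM in root +N, but 32.8, 30.0 and 37.3 CPM in shoot −N and 15.9, 16.2 and 15.3 CPM in shoot +N. The root −N libraries differed from each other by more than those of any other group of this gene. With an organ difference of −6.57 (SE 0.09; edgeR adjusted p = 1.74e-24, lower in 6 of 6 shoot libraries) it leaned to roots more than any other of the 217 genes.

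*Solyc09g005110.3* had 2.62, 3.77 and 8.10 CPM in root −N and 12.4, 18.4 and 18.4 CPM in root +N. Its shoot levels were 2.17, 3.13 and 2.83 CPM in −N and 0.421, 0.141 and 0.549 CPM in +N. Here root −N replicate 3 stood apart from the other −N roots but stayed below each +N root. Its log2 fold changes were 1.92 (SE 0.27) in roots and −2.60 (SE 0.39) in shoots, and it passed the thresholds in both organs, whereas *Solyc10g076510.2* with 0.96 (SE 0.10) and −0.78 (SE 0.09) passed in neither.

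Enzymes at the junction of carbon and amino acid metabolism were part of the group. *Solyc07g032740.4*, an aspartate aminotransferase, which moves amino groups between aspartate and glutamate, was among the 5 most counted genes with 492, 604 and 708 CPM in root −N and 1191, 1183 and 1243 CPM in root +N. Its shoot groups lay at 41.3 to 48.9 CPM in −N and 28.0 to 33.0 CPM in +N, close but apart. This aminotransferase gene does not meet the rule with TMM (shoot log2 fold change −0.30, SE 0.08). Of 16 described genes for N assimilation enzymes and ammonium transporters 1 was in the group, the glutamate dehydrogenase *Solyc10g078550.4*, which interconverts glutamate and 2-oxoglutarate with ammonium. It had 195 to 205 CPM in root −N and 690 to 784 CPM in root +N, against 127 CPM in each shoot −N library and 69.9 to 72.7 CPM in shoot +N. The dehydrogenase gene does not meet the rule with TMM either (shoot log2 fold change −0.53, SE 0.05). Of the whole list 8 genes were called higher and 3 lower in +N roots (13 tested), and 7 were called higher and 2 lower in +N shoots (13 tested).

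Further metabolic genes are named here after their values were seen. *Solyc03g123600.4*, an alanine aminotransferase, had group means of 17.9 and 44.9 CPM in −N and +N roots and 5.38 and 3.30 CPM in −N and +N shoots. With TMM it does not meet the rule (shoot log2 fold change −0.41, SE 0.17), whereas the genes that follow in this paragraph do. *Solyc05g041200.4*, a 4-hydroxyphenylpyruvate dioxygenase of tyrosine breakdown and plastoquinone synthesis, had 16.3 and 41.3 CPM in roots and 54.1 and 21.8 CPM in shoots. *Solyc08g077530.3*, a beta-amylase whose *Arabidopsis* homolog BAM3 degrades starch in chloroplasts, had 15.9 and 42.8 CPM in roots and 291 and 150 CPM in shoots. Unlike the aminotransferases it was called higher in shoots, with an organ difference of 3.12 (SE 0.06).

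Chaperones formed a further set. Of 57 described heat shock proteins and chaperones 5 were in the group (8.77%, beside 2.32% of all 5122 described genes). The list as a whole went both ways, with 15 genes called higher and 12 lower in +N roots (45 tested) and 11 called each way in shoots (43 tested). Its median log2 fold change was 0.53 in roots and −0.21 in shoots, beside −0.10 and −0.03 for all described genes. Because descriptions exist only for genes that the study listed as changed, counts of this and the following lists are not independent evidence of their direction.

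*Solyc04g011440.4*, an ethylene-responsive heat shock cognate protein of the Hsp70 family, had 10.6, 10.7 and 11.1 CPM in root −N and 27.1, 44.7 and 30.0 CPM in root +N. In shoots it had 12.7, 12.9 and 13.6 CPM in −N and 4.73, 3.11 and 3.84 CPM in +N. Both starved groups were tight and similar, and N supply was followed by higher levels in one organ and lower levels in the other. Hsp70 proteins fold other proteins with the help of cochaperones, and 3 of the other 4 chaperone genes encode cochaperones of 2 kinds.

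A DnaJ protein gene, *Solyc04g081530.1*, of the kind that stimulates Hsp70, had 0.735 to 1.31 CPM in root −N and 3.66 to 5.56 CPM in root +N. In shoots it had 1.73 to 3.60 CPM in −N and 0.439 to 1.16 CPM in +N, so the gap between the shoot groups was small. The other DnaJ gene, *Solyc07g065970.1*, had 51.0 to 82.7 and 154 to 211 CPM in −N and +N roots and 6.07 to 8.16 and 2.07 to 4.05 CPM in −N and +N shoots. *Solyc10g084170.1* encodes a Bag family regulator, a family that binds Hsp70, with the *Arabidopsis* homolog BAG5. It stood at 1.02 to 1.82 and 4.68 to 7.85 CPM in −N and +N roots and at 0.691 to 1.51 and 0.165 to 0.473 CPM in −N and +N shoots. *Solyc09g015000.4*, a class I small heat shock protein gene, was the weakest of the set in roots, where +N replicate 1 with 1.51 CPM barely exceeded the highest −N library with 1.45 CPM.

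The mixed list of jasmonate response and proteinase inhibitors, with only 16 described genes, had 3 in the group (18.8%, beside 2.32% of all described genes). All 3 are proteinase inhibitors of the Kunitz type. These proteins block digestive and other proteases and are best known from defence against insects. On the whole list 10 genes were called higher and 1 lower in +N roots (13 tested), and 2 were called higher in +N shoots (11 tested). *Solyc06g072220.1*, annotated as miraculin-like, had 7.79, 7.25 and 6.60 CPM in root −N and 51.1, 48.7 and 46.0 CPM in root +N. Its shoot levels were 5.78, 5.16 and 5.52 CPM in −N and 2.63, 1.84 and 2.42 CPM in +N.

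That gene lay between 5.16 and 7.79 CPM in the starved roots and shoots, and its +N roots stood far above the other 9 libraries. Its neighbour in the identifier order, *Solyc06g072230.1*, had 0.796 to 1.93 and 2.75 to 4.06 CPM in −N and +N roots and 4.29 to 5.83 and 2.05 to 3.02 CPM in −N and +N shoots. *Solyc03g098730.1* had 5.40 to 7.73 and 12.8 to 17.5 CPM in roots and 3 to 3.06 and 1.59 to 2.64 CPM in shoots. Its shoot log2 fold change with TMM was −0.32 (SE 0.24), and it does not meet the rule with TMM, whereas the miraculin-like gene and its neighbour do. Reads that fit several near-identical copies could be split between these genes in a way that is not given in the sources used here.

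Stress and abscisic acid (ABA) genes, 2 of 45 described (4.44%), included one of the largest root changes. The ABA list as a whole had 10 called higher and 13 lower in +N roots (38 tested). In +N shoots it had 6 higher and 10 lower (34 tested). *Solyc06g009140.3* encodes the late embryogenesis abundant protein Lea5, whose *Arabidopsis* homolog SAG21 accumulates in stress and senescence. It had 51.4, 54.1 and 69.4 CPM in root −N and 531, 567 and 624 CPM in root +N. In shoots it had 38.3, 43.5 and 59.0 CPM in −N and 30.7, 30.4 and 25.6 CPM in +N. In roots the mean in +N was 9.85 times that in −N, in shoots the groups lay close together, and the shoot log2 fold change with TMM was −0.40 (SE 0.12) against 3.46 (SE 0.10) in roots.

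*Solyc06g076400.3*, a protein phosphatase 2C, showed the reverse balance. Its *Arabidopsis* homolog HAI3 belongs to the phosphatases that hold back ABA signalling. It had 9.50, 13.6 and 16.0 CPM in root −N, 35.8, 30.1 and 27.5 CPM in root +N, 66.5, 73.9 and 80.9 CPM in shoot −N and 16.4, 18.2 and 18.0 CPM in shoot +N. Shoots were far above roots under starvation and below them under N supply. The log2 fold changes were 1.42 (SE 0.15) and −1.78 (SE 0.08), both past the thresholds, and the organ difference of 0.94 (SE 0.09) was under the 2-fold limit. Other genes with dehydration in their annotation were *Solyc06g084330.3* of the ERD family, with 1.04 and 2.50 CPM in −N and +N roots and 1.31 and 0.0840 CPM in −N and +N shoots, and both DREB2-type factors *Solyc06g050520.3* and *Solyc05g052410.3*, a pair named after their values were seen.

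Transcription factors of the WRKY, NAC and MYB families contributed 6 of 79 described genes (7.59%). On this list 18 were called higher and 27 lower in +N roots (68 tested), and 5 higher and 16 lower in +N shoots (53 tested). *Solyc03g116100.3*, annotated as R2R3MYB 31, has the *Arabidopsis* homolog MYB96, which links ABA to cuticular wax. It had 0.512, 0.490 and 0.805 CPM in root −N, 3.85, 2.80 and 3.09 CPM in root +N, 8.25, 8.48 and 10.2 CPM in shoot −N and 3.84, 4.33 and 3.73 CPM in shoot +N. The +N roots came close to the +N shoots, and the gene was called higher in shoots over both treatments (organ difference 2.20, SE 0.15).

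The MYB-like factor gene *Solyc07g026680.2*, annotated as DIVARICATA, was more even. A second gene with this annotation, *Solyc11g006720.2*, is among the 217 but not on the list, because its *Arabidopsis* description does not name the family. *Solyc07g026680.2* had 12.9 to 17.7 and 32.5 to 33.8 CPM in −N and +N roots and 26.0 to 32.4 and 8.56 to 9.19 CPM in −N and +N shoots. *Solyc10g011910.4*, annotated as WRKY 25 with the *Arabidopsis* homolog WRKY22, had 5.69 to 6.71 and 15 to 15.6 CPM in roots and 1.58 to 1.66 and 0.471 to 0.988 CPM in shoots. WRKY factors are widely known as regulators of defence and senescence, and the other members were the WRKY genes *Solyc02g088340.4* and *Solyc12g096350.2* and the NAC gene *Solyc06g074170.3*.

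A mixed list of bHLH, bZIP, GRAS, LBD, homeobox and zinc finger factors held 9 of 185 described genes (4.86%), mostly zinc finger proteins. The zinc finger protein gene *Solyc03g113350.3* had 133 to 147 and 352 to 364 CPM in −N and +N roots and 46.6 to 54.2 and 19.6 to 21.5 CPM in −N and +N shoots, with tight replicates in each group. *Solyc08g065940.4*, a CCCH zinc finger gene, had 81.8 to 97.7 and 244 to 287 CPM in roots and 87.5 to 107 and 42.7 to 51.4 CPM in shoots. *Solyc06g082050.2*, an acyltransferase with a PHD-type zinc finger, had under 4 CPM in each library. The gene annotated SCARECROW, *Solyc07g063940.2*, had group means of 24.6 and 63.6 CPM in roots and 29.6 and 16.5 CPM in shoots, and its *Arabidopsis* homolog PAT1 acts in phytochrome signalling.

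Of 204 described protein kinases 9 were in the group (4.41%), and 2 of these were also among the 65 described calcium sensors and calcium transport genes (3.08%). The kinase list as a whole went mostly down, with 33 called higher and 65 lower in +N roots (154 tested). In +N shoots 7 kinases were called higher and 30 lower (145 tested). The calcium list had 16 called higher and 22 lower in +N roots (53 tested). In +N shoots it had 4 higher and 10 lower (47 tested). The calcium-dependent kinase *Solyc02g083850.3*, a type of kinase that calcium activates directly, had 7.28, 7.98 and 11.3 CPM in root −N and 43.3, 45.7 and 50.1 CPM in root +N. In shoots it had 2.57 to 3.79 CPM in −N and 1.60 to 2.37 CPM in +N, so the shoot groups nearly touched. *Solyc03g093380.2* had 7.94 to 8.77 and 23.4 to 27.8 CPM in −N and +N roots and 1.37 to 1.48 and 0.158 to 0.878 CPM in −N and +N shoots, and *Solyc12g005450.1* and *Solyc01g005370.3* had under 8 CPM in each library.

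Of other hormone lists, gibberellin genes gave 1 of 10 described (10%) and auxin genes 1 of 42 (2.38%), and cytochromes P450 gave 2 of 85 (2.35%). Most called cytochromes P450 went down, with 16 called higher and 47 lower in +N roots (73 tested). In +N shoots 1 was called higher and 18 lower (50 tested). The steroid-inactivating cytochrome P450 gene *Solyc12g006860.2*, with the *Arabidopsis* homolog BAS1 that breaks down brassinosteroids, had 17.2 to 20.5 and 54.9 to 64.4 CPM in −N and +N roots and 3.92 to 5.39 and 2.03 to 2.69 CPM in −N and +N shoots. *Solyc02g064830.4*, an enzyme gene of the GH3 family that joins auxin to amino acids, was the auxin gene, with 0.341 to 0.686 and 0.916 to 1.76 CPM in roots and 0.959 to 1.47 and 0.141 to 0.659 CPM in shoots. With gibberellin 2-oxidase 1, these 3 genes encode enzymes that remove active hormone, but no list of such enzymes was counted. The ethylene list held 2 of 54 described genes (3.70%), the Hsp70 gene above and *Solyc12g056590.2*, Ethylene Response Factor D.2, which had 9.55 to 10.6 and 20.4 to 26.6 CPM in roots and 2.19 to 2.86 and 1.04 to 1.37 CPM in shoots. On the ethylene list 7 were called higher and 14 lower in +N roots (48 tested). In +N shoots 7 were called higher and 11 lower (41 tested).

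Cell wall genes, 2 of 120 described (1.67%), leaned to opposite organs. The extensin-like gene *Solyc01g005850.2*, for a structural wall protein, had 13.2, 14.4 and 13.5 CPM in root −N and 53.7, 50.3 and 53.3 CPM in root +N, with 1.61 to 2.22 and 0.494 to 1.21 CPM in −N and +N shoots. It was called higher in roots (organ difference −4.28). The expansin-like gene *Solyc08g077330.3*, of a family known for wall loosening, had 0.392 to 0.682 and 1.20 to 1.77 CPM in roots and 4.25 to 6.32 and 1.79 to 2.69 CPM in shoots, and it was called higher in shoots (2.22).

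The remaining lists held few of the 217 genes. Glycosyltransferases had 2 of 68 described genes (2.94%), of which *Solyc03g078780.3* had 4 to 4.42 CPM in shoot −N, 0.684 to 1.10 CPM in shoot +N and under 2.5 CPM in roots, and *Solyc11g007490.1* had under 2 CPM in each library. Most called glycosyltransferases went down, with 8 called higher and 34 lower in +N roots (54 tested). In +N shoots 2 were called higher and 22 lower (51 tested). Ubiquitin ligases and F-box proteins had 3 of 170 (1.76%). The RING-type gene *Solyc06g064440.3* among them had 24.8 to 27.3 CPM in root −N and 140 to 149 CPM in root +N, against 24.5 to 28.5 and 15.8 to 17.8 CPM in −N and +N shoots, so its starved organs were level. A single gene each came from the ribosome and translation list (*Solyc11g069700.2*, elongation factor 1-alpha, 1 of 139), the clock and light list (*Solyc02g089540.3*, CONSTANS 1, 1 of 17) and the efflux list (*Solyc11g010380.2*, a DETOXIFICATION protein, 1 of 55). Elongation factor 1-alpha, which brings aminoacyl-tRNA to the ribosome, had 11 to 13.7 and 64.3 to 84.3 CPM in −N and +N roots, and as a gene with close copies its counts are uncertain.

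Of the 29 lists 10 held none of the 217 genes. They were nitrate transporters (33 described genes), amino acid, peptide and purine transporters (35), sugar transporters and sucrose or trehalose enzymes (30), cytokinin genes (17), glutaredoxins (19), peroxidases and glutathione S-transferases (53), phenylpropanoid enzymes (50), aquaporins (9), phosphate, sulfate and metal ion transport (55) and photosynthesis proteins (63). Of the 19 described glutaredoxins 13 were called higher in +N roots and 13 higher in +N shoots, with median log2 fold changes of 4.29 and 8.81, a direction common to both organs.

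Genes at the ends of the organ difference included the most counted of the group. *Solyc06g059740.4*, with no description here, had 6350, 6833 and 7742 CPM in root −N and 10606, 10685 and 11328 CPM in root +N. Its shoot libraries had 133, 153 and 166 CPM in −N and 76.8, 90.8 and 85.8 CPM in +N. So roots held far more of its reads than shoots in all 12 libraries, and the organ difference was −6.16 (SE 0.07; edgeR adjusted p = 2.76e-26, lower in 6 of 6 shoot libraries).

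*Solyc01g100370.3*, of the adenine nucleotide alpha hydrolase-like superfamily, had 378, 463 and 565 CPM in root −N and 1358, 1303 and 1362 CPM in root +N. In shoots it had 13.3 to 14 CPM in −N and 7.54 to 8.29 CPM in +N. The lipid transfer protein gene *Solyc01g066910.3* was 1 of 2 members among 90 described lipid transfer, wax and cutin genes (2.22%). That list had 15 called higher and 42 lower in +N roots (71 tested). In +N shoots it had 12 higher and 10 lower (60 tested). *Solyc01g066910.3*, with the *Arabidopsis* homolog DIR1 that is needed for systemic immunity, had 62.7 to 80.6 and 208 to 219 CPM in −N and +N roots and 1.60 to 2.58 and 0.848 to 1.43 CPM in −N and +N shoots. Its organ difference was −6.24 (SE 0.10), and with TMM neither of these genes meets the shoot part of the rule.

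At the other end, *Solyc07g066310.3*, also undescribed, had 30.1, 31.9 and 32.5 CPM in root −N and 50.3, 54.1 and 49.4 CPM in root +N. Its shoot libraries had 2985, 3075 and 3537 CPM in −N and 1936, 2175 and 2003 CPM in +N, so it was a shoot transcript with a low level in roots (organ difference 6.10, SE 0.05; edgeR adjusted p = 1.28e-27, higher in 6 of 6 shoot libraries). *Solyc09g083150.4*, undescribed, had 1.31 to 1.77 and 2.20 to 2.55 CPM in −N and +N roots and 79.9 to 83.5 and 51.3 to 56.6 CPM in −N and +N shoots. The cytochrome P450 gene *Solyc08g079420.3*, with the *Arabidopsis* homolog CYP706A6, had 0.512 to 0.912 and 0.916 to 1.54 CPM in roots, where the highest −N and the lowest +N library were almost level, and 34.1 to 44.2 and 8.05 to 9.61 CPM in shoots. The F-box protein gene *Solyc12g056410.2* had 24.2 to 26.1 and 35.6 to 44.5 CPM in roots and 112 to 163 and 83.8 to 88.9 CPM in shoots, and it too was called higher in shoots (1.88).

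Other genes with a large difference between organs were *Solyc02g078660.4*, for a hydroxyproline-rich glycoprotein, and *Solyc08g007480.2*, for a protein with the DUF1442 domain. The first had 8.64 to 13 and 36.5 to 42.9 CPM in −N and +N roots and 2.72 to 3.97 and 0.220 to 0.894 CPM in −N and +N shoots. The second had 1.45 to 2.84 and 13.7 to 22.3 CPM in roots and 0.968 to 2.33 and 0.368 to 0.707 CPM in shoots, so its shoot values rest on few reads. Among genes with no named product, *Solyc09g025230.4* had 3.28 to 5.29 and 5.67 to 7.33 CPM in roots and 0.840 to 1.24 and 0.0942 to 0.110 CPM in shoots, and *Solyc01g105430.4* had 1.36 to 4.19 and 11.8 to 12.8 CPM in roots and 1.89 to 2.86 and 1.13 to 1.68 CPM in shoots.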

How the data were processed

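mRNA was measured in 12 libraries of roots and shoots, 3 for each treatment, and ChIP-Seq libraries were not analysed here. Raw counts per gene, whole and not normalized, were deposited by the authors, who used Cutadapt for trimming, TopHat2 for mapping (genome build 4.0) and HTSeq for counting. Neither the strand setting nor the handling of reads with several matches is stated, so near-identical, overlapping and antisense genes are uncertain. None of the gene identifiers matched the reference gene table (0 matched), and no sequence is printed.

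Groups came from the sample labels. CPM was computed from total counts. edgeR 4.0.16 (R 4.3.3; TMM, filterByExpr at 10 counts, or 15 in all, glmQLFit, glmQLFTest, Benjamini-Hochberg) was fitted within each organ for +N against −N, and over 12 libraries for the organ difference, whose contrast is orthogonal to those of the rule. With 3 libraries against 3, a permutation test of 1 gene cannot give p below 0.1. The edgeR script was tested on simulated data. DESeq2 1.42.0, other scalings, filters, limits, a replicate block and leaving out each library were tried. ITAG4.0 and *Arabidopsis* descriptions were matched to 29 lists by their words.

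The genes named are the 12 described with the largest root minus shoot log2 fold change, the 5 most counted, up to 3 of each list with at least 2 members, the 3 at either end of the organ difference and the 2 without a named product with the largest root minus shoot difference. Any other gene was named after its values were seen, or is the sole member of a list. The group and all lists were chosen with earlier results of these data known.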

Additional observations from a re-analysis of the deposited data

Results flagged for a closer look

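The 217 genes are a difference between organs by construction, since each +N root library exceeded each −N root library and each +N shoot library fell below each −N shoot library. Whether the N response differs between the organs was not tested for them because the rule used it.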

How the results depend on the processing

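The rule chose 51 genes at 2-fold, 519 at a lower fold limit and 141 with a level limit of 5 CPM in place of 217, and 212 to 249 with a library left out, of which 195 to 212 are among the 217. With edgeR adjusted p at most 0.05 in both organs in place of no overlap it chose 190, of which 187 are among the 217. Members called were 121 to 145 in roots and 42 to 58 in shoots without a library, and 108 in shoots with total counts in edgeR, where the share of all tested genes rose from 7.62% to 14.6%. With a replicate block the calls were 129 in roots, 51 in shoots, 120 higher in roots and 17 higher in shoots, a change of calls within 1.5 times. Deviations of same-numbered libraries correlated between −0.071 and 0.079, so the numbers were not taken to pair the libraries. Leaving out a library gave 119 to 121 members higher in roots and 17 to 19 higher in shoots. In −N libraries alone 59 were higher in roots and 53 in shoots, and in +N libraries alone 168 and 9, a shift that the rule sets, beside 18.1% and 19.6% of all tested genes in −N and 22.1% and 22.9% in +N. The 122 that also qualify with TMM, examined after seeing the data, had 70 and 8. Direction alone in held-out libraries gave 92.4% in place of 57.1%. The organ difference changed sign in +N libraries alone for *Solyc06g075970.4* (−4.99), *Solyc05g009580.3* (−4.72) and *Solyc02g070430.3* (−2.53), and in −N libraries alone for *Solyc08g076730.4* (0.37), *Solyc06g084330.3* (0.38), *Solyc04g081530.1* (1.5), *Solyc04g011440.4* (0.35), *Solyc12g005450.1* (0.18), *Solyc06g064440.3* (0.04), *Solyc01g105430.4* (0.03), *Solyc07g026680.2* (1.02), *Solyc06g082050.2* (1.28) and *Solyc08g065940.4* (0.18). At low counts, levels near 1 CPM rest on about 20 reads a library, which limits the shoot part of the rule.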

Other observations

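The genes of the group lay on all 12 chromosomes by their identifiers, from 0.813% of the genes at the level limit on chromosome 11 to 1.79% on chromosome 6. Next to each other in the identifier order stood 9 pairs that involve 17 genes. On chromosome 6, *Solyc06g054600.2*, *Solyc06g054610.2* and *Solyc06g054620.4* followed each other, the last a zinc finger gene and the others undescribed. Their mean levels in −N and +N roots were 55.4 and 86.4, 27.9 and 51.1, and 75.9 and 146 CPM. In −N and +N shoots they were 8.74 and 5.55, 5.44 and 2.99, and 12.3 and 7.41 CPM. On chromosome 4 the undescribed neighbours *Solyc04g064545.1* and *Solyc04g064550.1* had 45.0 and 81.6, and 175 and 303 CPM in roots, and 10.8 and 5.81, and 62.4 and 34.0 CPM in shoots. Reads that overlap neighbouring gene models were not tested as a source of such pairs.

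The gene of the plastid sigma factor, *Solyc03g007370.3*, was named after its values were seen. Its *Arabidopsis* homolog SIG5 directs the plastid RNA polymerase to light- and stress-responsive genes. It had 3.38 to 4.09 CPM in root −N, 5.72 to 10.5 CPM in root +N, 15.8 to 17.7 CPM in shoot −N and 2.42 to 3.58 CPM in shoot +N. Under starvation shoots held more of it and under N supply roots did. *Solyc08g068070.3*, a truncated hemoglobin gene, had 29.6 to 40.9 and 71.0 to 81.6 CPM in −N and +N roots and 18.8 to 22.3 and 8.78 to 9 CPM in −N and +N shoots.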
